A study of Mus musculus with 35 samples.

Results

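The comparison described here is between sorted cranial neural crest cells of female mouse embryos with a conditional deletion of Utx and those of male wild-type embryos, measured by RNA sequencing and read over autosomal genes. It uses 4 of the 35 samples of the series, namely 2 of the 6 RNA libraries from wild type (wt1, wt2) and 2 from the female knockout (fko1, fko2). Of 23366 genes in the deposited table, 22137 were placed on an autosome and kept, while 1027 genes on X, 45 on Y and 157 without a single chromosome were dropped. The wild-type embryos were male and labelled WT Wnt1-Cre:wt, and the knockout embryos were female and labelled Utx fl/fl, Wnt1-Cre:fko. Male knockout embryos labelled Utx fl/y, Wnt1-Cre:mko gave 2 further libraries (mko1, mko2), which are shown for reference. All groups carried Wnt1-Cre and a Rosa-Tomato reporter, and all were at stage E12.5. Since the wild-type embryos were male and these knockouts female, the effects of sex and of the deletion cannot be told apart in this comparison. Wnt1-Cre is active in the dorsal neural tube, so besides neural crest it marks midbrain and other dorsal neural cells. The labels do not say whether a library came from 1 embryo or a pool, or whether replicates were separate embryos. P-values therefore cannot be taken to measure the spread between embryos. They rest on the spread left after the library set described below is taken out. Nearly all of that spread is borrowed across genes, and it may be technical.

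UTX, also called Kdm6a, is an X-linked enzyme that removes methyl groups from lysine 27 of histone H3, a mark laid down by Polycomb repressive complex 2. It also sits in the COMPASS complexes around the histone H3 lysine 4 methyltransferases MLL3 and MLL4, which act at enhancers. Loss of UTX function in people causes a form of Kabuki syndrome, in which the face, a structure built largely by neural crest, is affected. Cranial neural crest cells leave the dorsal neural tube and form the cartilage, bone and connective tissue of the face, together with sensory neurons, glia and pigment cells.

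The 4 libraries held between 14513993 (wt2) and 16301420 (fko1) reads on genes. They fall into a pair of sets by the share of reads on no annotated gene, which was 21.3% in wt1 and 21.96% in fko1 (the low set) but 27.8% in wt2 and 27.5% in fko2 (the high set). Each set holds 1 library of each genotype, and the set was therefore used as a block. The ribosomal precursor Rn45s, which is outside the tested genes, stood at 9368 and 3830 CPM (read counts scaled to library size) in wt1 and wt2 and at 33172 and 29949 in fko1 and fko2. Counts over the whole Kdm6a gene (47.3 and 55.5 CPM in wild type, 49.7 and 62.7 in female knockout) cannot check a deletion of part of the gene. Xist, the RNA of the inactive X, was at 1.05 and 1.79 CPM in wild type and at 1493 and 2283 in female knockout. The Y-linked genes Ddx3y, Eif2s3y and Kdm5d had 19 counts each in fko2 and 0 to 1 in fko1. Cranial mesenchyme markers summed to between 4482 and 4917 CPM over the 12 listed genes in the 4 libraries. That sum does not describe the single members. In the test described below 7 of the 12 were called higher in female knockout (58.3%) and 1 lower (8.33%). Over all tested genes 22.1% were higher and 20.5% lower. Markers of other cells were low, with summed levels of 39.2 to 52.5 CPM for macrophages, 60.4 to 77.3 for endothelium, 25.7 to 37.2 for epithelium and 8.15 to 13.3 for skeletal muscle. Erythroid markers summed to 331 to 547 CPM, mostly embryonic globin, while Hba-a1, Hba-a2 and Hbb-b2 had no reads in any of the 4 libraries.

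Autosomal expression differed widely and by small amounts between the female knockout and wild type. Regulators of the brain and neural tube fell, and 12 of 21 sensory neuron genes rose. Genes of ribosomes, mitochondrial respiration and DNA replication, and a joint list of glycolysis and hypoxia response genes, leaned upward by modest factors. Of 13801 genes with enough reads to test, 3056 were higher in the female knockout (22.1%) and 2835 lower (20.5%) at an adjusted p below 0.05 by edgeR's quasi-likelihood test with Benjamini-Hochberg adjustment, 42.7% in all. Called changes of at least 2-fold were fewer and leaned downward, with 176 genes higher (1.28%) and 382 lower (2.77%). Both knockout libraries lay on one side of both wild-type libraries for 4405 of the called genes (31.9% of those tested), and for 6964 genes called or not (50.5%).

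The number of called genes is far less certain than the direction of the leading ones. Of the fits run, the one with 4 libraries and the block called the most genes. Each gene has 1 residual degree of freedom in it, and nearly all of the estimate of spread is borrowed from other genes. Without the block 34 genes were called (0.246%), 10 higher and 24 lower, with 2191 at an unadjusted p below 0.05. A fit of all 6 RNA libraries with the set as a term called 3262 genes, and leaving 1 library out of that fit gave 1467 (without wt1), 517 (without wt2), 336 (without fko1) and 1809 (without fko2). Falls outnumbered rises in these 4 fits, with rises making up 33.04% to 45.88% of the calls, against 51.9% in the fit with 4 libraries. In every alternative other than the fit without the block, 216 genes were called in the same direction, 56 higher and 160 lower, and 31 were called in every alternative. Those counts were chosen after the data were seen.

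**Figure D1:**
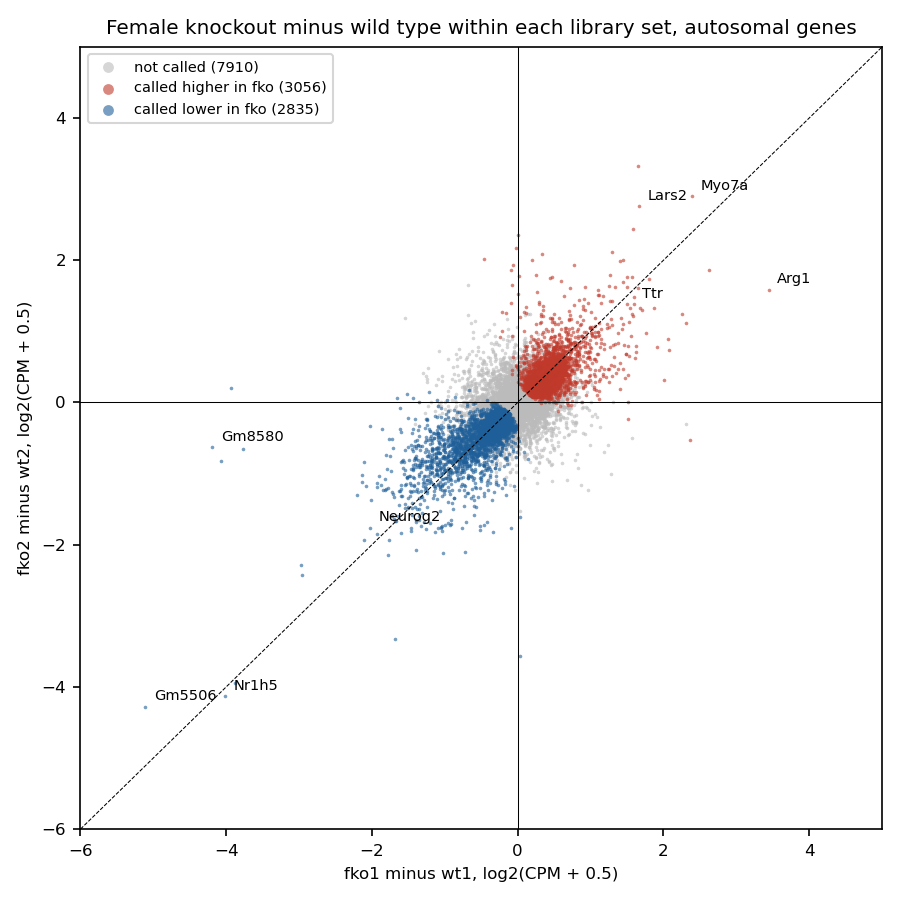
Difference between female knockout and wild type in the low set (fko1 minus wt1, x axis) and in the high set (fko2 minus wt2, y axis), on the log2(CPM + 0.5) scale, for each tested autosomal gene. Red points are the 3056 genes called higher and blue points the 2835 called lower; Gm8580 lies far from the diagonal, Neurog2 and Nr1h5 close to it.

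Neural regulators fell together, and the ventral neural tube list had the lowest median of the 47 lists. The ventral neural tube list holds transcription factors and signals of the floor plate and ventral progenitor domains; 15 of its 18 tested members fell and 1 rose, with a median log2 fold change of -1.36 against 0.01 over all tested genes. Among forebrain and midbrain transcription factors 20 of 33 fell and 2 rose (median -0.80). Falls made up 83.3% of the ventral list and 60.6% of the brain factors, against 20.5% of all tested genes. In these bulk samples, fewer cells of a type and less RNA per cell cannot be told apart. Neurog2, a proneural factor that starts neuronal differentiation, was at 36.0 and 37.5 CPM in wild type and at 8.49 and 10.7 in female knockout. Its level was far lower in both knockout libraries, with a log2 fold change of -1.94 (SE 0.13, n = 2 per group, edgeR adjusted p = 2.61e-27). Olig2, which specifies motor neuron and oligodendrocyte progenitors, stood at 9.68 and 10.3 CPM in wild type and 2.51 and 2.35 in knockout (log2 fold change -2.04, SE 0.22, edgeR adjusted p = 4.97e-14). Its wild-type and knockout libraries did not overlap.

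Otx2, needed for forebrain and midbrain identity, was at 28.4 and 30.2 CPM in wild type and at 10.7 and 12.3 in female knockout (log2 fold change -1.35, SE 0.13). Nkx2-1, a factor of the ventral forebrain, was at 35.5 and 41.4 CPM against 13.9 and 13.8 (log2 fold change -1.47, SE 0.12). In Otx2 and Nkx2-1 the libraries of a genotype lay close together and the genotypes far apart, and both were called also without the block, as were Neurog2, Olig2 and the midbrain and hindbrain factor Barhl1. Pou3f2, a factor of neural progenitors and upper-layer neurons, was at 67.1 and 109 CPM in wild type and 21.3 and 45.8 in knockout (log2 fold change -1.43, SE 0.08). Here the libraries of each genotype differed from each other as well, the high set above the low set in both genotypes.

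The same direction ran through progenitor and neuronal differentiation genes. Of the proneural and Notch list, 15 of 23 fell and 4 rose (median -0.41), among them the Notch ligands Dll1 and Dll3 and the Notch target Hes5. Dll3 was at 21.7 and 24.4 CPM in wild type and at 6.40 and 7.32 in female knockout (log2 fold change -1.75, SE 0.15). Of the neural progenitor genes, 11 of 18 fell and 3 rose (median -0.68). Nes, the intermediate filament of neural stem cells, was at 129 and 192 CPM against 82.4 and 75.7 (log2 fold change -0.998, SE 0.07), and Sox1, a neuroectoderm factor, at 16.2 and 20.8 against 5.71 and 8.98. Neither gene overlapped between genotypes. Among pan-neuronal genes 21 of 29 fell and 3 rose (median -0.36), with Celf3, a neuronal RNA-binding protein, at 128 and 164 CPM against 45.9 and 68.0 (log2 fold change -1.37, SE 0.07). The 3 that rose include the neurofilament subunits Nefl (log2 fold change 1.10) and Nefm (0.82), which are abundant in large projection neurons. Falls made up 65.2% of the proneural and Notch, 61.1% of the progenitor and 72.4% of the pan-neuronal list. Rises made up 17.4%, 16.7% and 10.3% of the same lists. Over all tested genes 20.5% were lower and 22.1% higher.

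These lists held up unevenly when libraries were left out. Ventral neural tube falls numbered 11, 9, 8 and 12 without wt1, wt2, fko1 and fko2, and brain transcription factor falls 16, 10, 9 and 17. Proneural and Notch falls numbered 10, 6, 7 and 9, and neural progenitor falls 10, 6, 7 and 9. Pan-neuronal falls numbered 7, 2, 2 and 16, and without wt2 as many as 3 rose. The set moved the same way as the genotype: the median difference of the low set minus the high set was -0.32 for the ventral neural tube list, -0.46 for brain factors, -0.29 for pan-neuronal genes and -0.01 over all tested genes. Within each set the knockout was lower, with medians of -1.21 (low) and -1.26 (high) for the ventral list and -0.74 and -0.69 for brain factors. Of the 12 markers of brain neuroepithelium 10 fell (83.3%, against 20.5% of all tested genes) and 2 rose. All 12 are also members of the neural lists above, so these are the same falls counted again. The 12 markers summed to 423 and 492 CPM in wild type and to 390 and 328 in knockout. Their sum was led by Fabp7, a marker shared with glia that was at 189 and 204 CPM against 281 and 198. The part of brain tissue content in these falls was not tested.

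**Figure D2:**
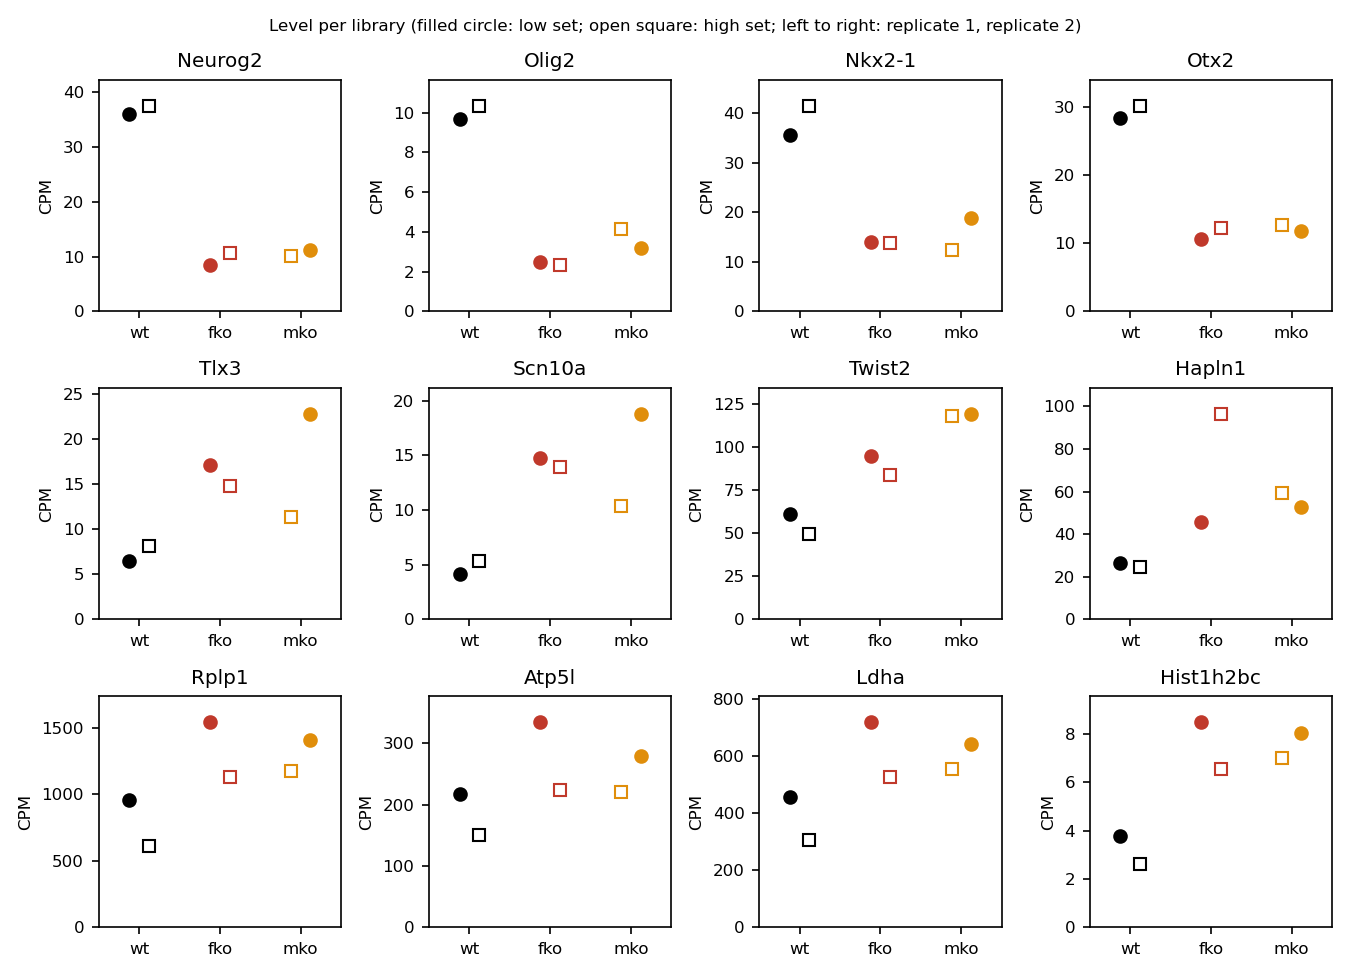
Level of 12 genes in CPM (linear y axis from 0) in each of the 6 RNA libraries by genotype; filled circles are libraries of the low set and open squares of the high set. Neurog2, Olig2, Nkx2-1 and Otx2 are lower, and Tlx3, Scn10a, Twist2, Hapln1 and Rplp1 higher, in both female knockout libraries than in both wild-type ones, whereas Atp5l in wt1 (218) nearly reaches fko2 (224).

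Sensory neuron genes leaned upward. Of 21 tested members 12 rose and 2 fell, with a median log2 fold change of 0.35. Scn10a, a sodium channel of pain-sensing neurons, was at 4.197 and 5.344 CPM in wild type and at 14.8 and 13.9 in female knockout (log2 fold change 1.59, SE 0.18, edgeR adjusted p = 4.03e-13). Tlx3, a selector of excitatory sensory neurons, was at 6.498 and 8.15 CPM against 17.1 and 14.8 (log2 fold change 1.13, SE 0.17). Both knockout libraries exceeded both wild-type ones for Scn10a and Tlx3. Isl1, a factor of all peripheral sensory neurons, rose by 0.54. The count of sensory genes that rose fell to 2 without wt1, 7 without wt2, 2 without fko1 and 5 without fko2, and the list's median was 0.06 without wt1. Autonomic and catecholamine genes leaned downward, 6 of 12 lower and 2 higher (median -0.54): Ddc, which makes dopamine and serotonin from their precursors, was at 10.2 and 9.87 CPM against 4.11 and 4.42 (log2 fold change -1.23, SE 0.20), and Th, the first enzyme of catecholamine synthesis, at 4.74 and 4.25 against 1.46 and 2.21. Hand2, a regulator of sympathetic neurons, was among the 2 that rose, from 3.32 and 1.99 CPM to 4.18 and 6.01. Autonomic falls numbered 4, 3, 3 and 5 in the same 4 fits. Schwann and glial genes were mostly uncalled, 4 higher (23.5%) and 2 lower (11.8%) of 17, with Sox10 higher by 0.29. Over all tested genes 22.1% were higher and 20.5% lower.

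Transcription factors of the facial mesenchyme leaned upward. Of 53 tested 26 rose and 8 fell, against backgrounds of 22.1% and 20.5%, with a median of 0.20. Twist2, a repressor that holds mesenchyme undifferentiated, was at 61.06 and 49.67 CPM in wild type and at 94.7 and 84.0 in female knockout (log2 fold change 0.69, SE 0.08, edgeR adjusted p = 3.94e-14). It was the one face factor called in every alternative other than the fit without the block. Foxc2, a forkhead factor of mesenchyme, was at 19.7 and 22.1 CPM against 37.7 and 32.9 (log2 fold change 0.76, SE 0.11), and its paralogue Foxc1 rose by 0.51. Homeobox factors of the arches and jaws moved in both directions. Dlx2, a homeobox gene of the pharyngeal arches, was at 37.4 and 35.0 CPM against 24.3 and 20.2 (log2 fold change -0.70, SE 0.11). Dlx1 fell by 0.56 and Lhx6, a factor of oral mesenchyme, by 0.60. Dlx5 and Dlx6, which pattern the lower jaw, rose by 0.31 and 0.35, and Barx1, a factor of the jaw mesenchyme, by 0.29. The Dlx genes named here, falling or rising, and Lhx6 are also expressed in ventral forebrain. The part of brain tissue in these changes was not tested. Msx1, a target of BMP signals in the face, was at 217 and 133 CPM against 252 and 211, so that wt1 lay above fko2 (log2 fold change 0.43). Without 1 library the rises among face factors numbered 9, 3, 1 and 5 (wt1, wt2, fko1 and fko2 left out) and its falls 1, 1, 5 and 0.

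Of 26 neural crest specifiers 8 rose (30.8%) and 5 fell (19.2%), near the shares of 22.1% and 20.5% over all tested genes (median 0.07). Without wt1, wt2, fko1 and fko2 the rises numbered 3, 1, 2 and 2 and the falls 4, 0, 0 and 2. Id3, an inhibitor of basic helix-loop-helix factors and a BMP target, was at 171 and 112 CPM in wild type and 303 and 214 in female knockout (log2 fold change 0.88, SE 0.06). Both knockout libraries were above both wild-type libraries. Id1, Id2 and Snai1 also rose. The 5 that fell include Zic1 and Zic2, which mark dorsal neural tube as well as crest, and Gbx2, a hindbrain and boundary factor, which was at 19.02 and 17.95 CPM against 7.66 and 9.39. Twist1 rose by 0.27, and the core mesenchyme genes Prrx1 (log2 fold change 0.11, SE 0.05) and Pdgfra (0.03, SE 0.06) were not called.

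Skeletal differentiation genes changed differently in the library sets. Each set holds 1 library of each genotype, so an effect of the set and 1 unusual library cannot be told apart. The cartilage list summed to 2049 and 1781 CPM in wild type, 1954 in fko1 and 2619 in fko2. Of 18 cartilage genes 11 rose and 2 fell (median 0.30), but the median was -0.17 for fko1 minus wt1 and 0.72 for fko2 minus wt2. Hapln1, which links proteoglycan to hyaluronan in cartilage matrix, was at 26.5 and 24.8 CPM in wild type and at 45.7 and 96.5 in knockout (log2 fold change 1.40, SE 0.10). Acan, the main cartilage proteoglycan, was at 16.3 and 10.3 CPM in wild type, 15.5 in fko1 and 40.6 in fko2, so the genotypes overlapped and fko2 alone was high. DESeq2 called none of these cartilage rises, and without wt2 the list had 1 rise and 3 falls with a median of -0.14. Of 12 osteoblast genes 4 rose and 4 fell, with 3, 0, 1 and 1 rises and 1, 3, 0 and 2 falls without wt1, wt2, fko1 and fko2. Col1a1, the main bone and skin collagen, was at 1233 and 1311 CPM in wild type and 683 and 829 in knockout (log2 fold change -0.76, SE 0.06), with no overlap, while Sp7, the osteoblast master regulator, was at 12.3 and 8.08 CPM against 12.3 and 24.3. The list of matrix genes had 7 lower and 3 higher of 24, with Col6a3 lower by 0.57, and 0, 2, 0 and 1 falls in those 4 fits. Among pericyte and smooth muscle genes 6 of 14 rose (4, 2, 2 and 3 in those fits) and 3 fell, and Rgs5, a pericyte marker, was at 4.400 and 5.001 CPM against 13.4 and 13.9 (log2 fold change 1.53, SE 0.18). Rgs5 was called in every alternative run. Endothelial markers, of cells that pericytes line, summed to 65.5 and 60.4 CPM in wild type and 74.1 and 77.3 in knockout. Of 15 tested, 3 were higher, a share below the 22.1% over all tested genes, and none lower. Their median difference was 0.24 in the low set and 0.0088 in the high set. Rises made up 61.1% of the cartilage, 33.3% of the osteoblast and 42.9% of the pericyte list. Falls made up 11.1%, 33.3% and 21.4% of the same lists and 29.2% of the matrix list. The shares over all tested genes were 22.1% and 20.5%.

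**Figure D3:**
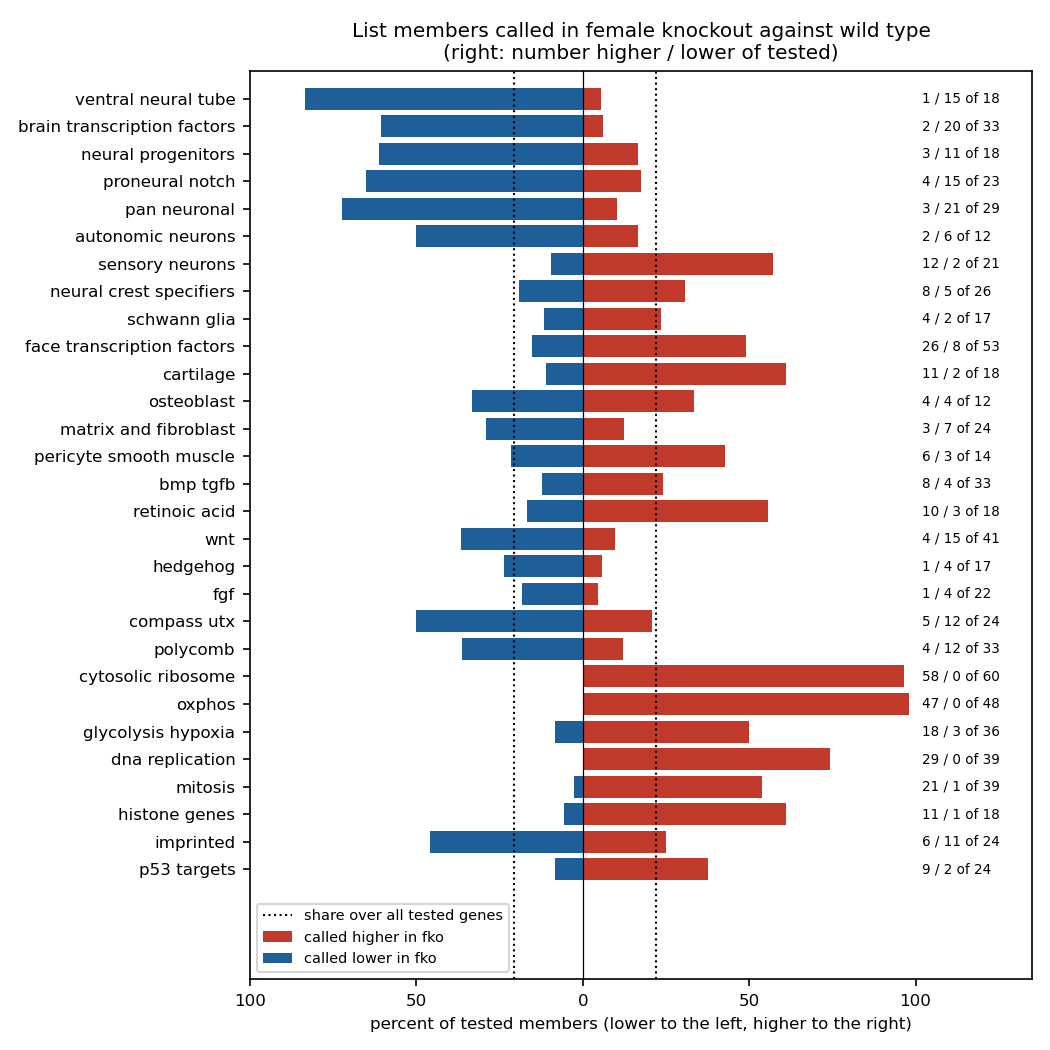
Share of tested members of 29 gene lists called higher (red, to the right) or lower (blue, to the left) in female knockout against wild type; dotted lines give the shares over all tested genes, 22.1% and 20.5%. Ventral neural tube genes lie far to the left (15 of 18 lower) and ribosomal and respiratory genes far to the right (58 of 60 and 47 of 48 higher).

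Of the signalling pathways, the retinoic acid list had more rises and the Wnt list more falls than the 22.1% and 20.5% over all tested genes, a difference from other genes that was not tested, while the calls that hedgehog, FGF and BMP genes made in their leading direction were near those shares. In the retinoic acid pathway, through which vitamin A patterns the face and hindbrain, 10 of 18 rose (55.6%) and 3 fell (median 0.30). The rises numbered 4, 3, 2 and 6 without wt1, wt2, fko1 and fko2. Dhrs3, which lowers retinaldehyde, was at 9.54 and 10.1 CPM in wild type and 21.7 and 19.1 in female knockout (log2 fold change 1.05, SE 0.15). The receptor Rarb, itself a retinoic acid target, rose by 0.60, the degrading enzyme Cyp26b1 by 0.53 and the synthetic enzyme Aldh1a2 by 0.49, while the binding protein Crabp2 fell by 0.48. Dhrs3 and Rarb did not overlap between genotypes.

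Of 41 genes of the Wnt pathway 15 fell (36.6%) and 4 rose. The Wnt falls numbered 6, 3, 4 and 3 without wt1, wt2, fko1 and fko2, and 5 with DESeq2. Wnt7b, a ligand of the forebrain and of surface epithelia, was at 27.96 and 28.57 CPM in wild type and 9.26 and 10.3 in knockout (log2 fold change -1.53, SE 0.14). Wnt1, the gene whose promoter drives the Cre, was at 14.82 and 23.02 CPM against 10.9 and 10.0 (log2 fold change -0.83, SE 0.15), and Axin2, a feedback target of the pathway, fell by 0.35. Of 17 hedgehog genes 4 fell (23.5%, and 1 in each fit without a wild-type or female knockout library) and 1 rose, with the ligand Shh at 7.78 and 10.0 CPM against 3.48 and 2.62 (log2 fold change -1.54, SE 0.22) and the receptor and target Ptch1 lower by 0.29. Wnt7b and Shh were lower in both knockout libraries than in both wild-type ones. Of 33 BMP and TGF-beta genes 8 rose (24.2%), among them Bmper and Bambi, and 4 fell, with 5, 1, 3 and 3 rises without wt1, wt2, fko1 and fko2. Of 22 FGF pathway genes 4 fell (18.2%; 2, 1, 1 and 2 in the same fits) and 1 rose, with Dusp4, a feedback phosphatase, lower by 0.79.

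Genes for the chromatin machinery around UTX leaned downward by small amounts, and most of these calls were lost when a library was left out. Of 24 COMPASS members and UTX partners 12 fell (50%) and 5 rose (median -0.17). Kmt2d, the gene of MLL4, could not be matched by symbol and was not tested. Of 33 Polycomb genes 12 fell (36.4%) and 4 rose (median -0.11), against 20.5% lower and 22.1% higher over all tested genes. Chd7, the remodeler mutated in CHARGE syndrome, was at 109 and 151 CPM in wild type and 68.3 and 90.3 in female knockout (log2 fold change -0.71, SE 0.07). Kdm6b, the autosomal paralogue of UTX and another H3K27 demethylase, was at 213 and 282 CPM against 155 and 196 (log2 fold change -0.49, SE 0.06). For both genes the high set was above the low set in each genotype and the knockout below wild type in each set. The methyltransferases Mll1 (-0.49) and Mll3 (-0.41) were also lower, and the small COMPASS subunit Dpy30 was higher (0.37). Without 1 library the COMPASS list had 3, 3, 1 and 4 falls (wt1, wt2, fko1 and fko2 left out) and no rise. The Polycomb list had no call in any of these 4 fits and 1 rise and 1 fall with DESeq2. Of 24 imprinted genes 11 fell and 6 rose, with 4, 3, 4 and 5 falls in the same fits. Magel2, a paternally expressed gene of the Prader-Willi region, was at 70.5 and 97.8 CPM against 27.7 and 41.1 (log2 fold change -1.30, SE 0.08). Meg3, a maternally expressed noncoding RNA, fell by 1.003 and H19, another maternally expressed noncoding RNA, rose by 0.57. Falls made up 45.8% and rises 25% of the imprinted genes, against 20.5% and 22.1% over all tested genes.

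Ribosomal protein and respiratory genes rose almost as whole sets. Of 60 tested cytosolic ribosomal protein genes 58 rose and none fell (median 0.52), and of 48 nuclear genes for oxidative phosphorylation 47 rose and none fell (median 0.43). These rises made up 96.7% and 97.9% of the lists, against 22.1% of all tested genes. Rplp1, an acidic protein of the ribosomal stalk, was at 958 and 613 CPM in wild type and 1547 and 1128 in female knockout (log2 fold change 0.79, SE 0.06). Its knockout libraries both exceeded the wild-type ones, but in each genotype the library of the low set was also the higher. Atp5l, a subunit of ATP synthase, was at 218 and 150 CPM against 335 and 224 (log2 fold change 0.60, SE 0.06), and here wt1 lay just below fko2. The difference between sets was nearly as large as that between genotypes: the low set exceeded the high set by a median of 0.45 for ribosomal and 0.42 for respiratory genes. The rises were called in 49, 9, 1 and 22 ribosomal genes and in 24, 5, 0 and 27 respiratory genes without wt1, wt2, fko1 and fko2, and in none of either list without the block. Many ribosomal protein genes have processed pseudogenes that could share their reads, so single members are uncertain.

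**Figure D4:**
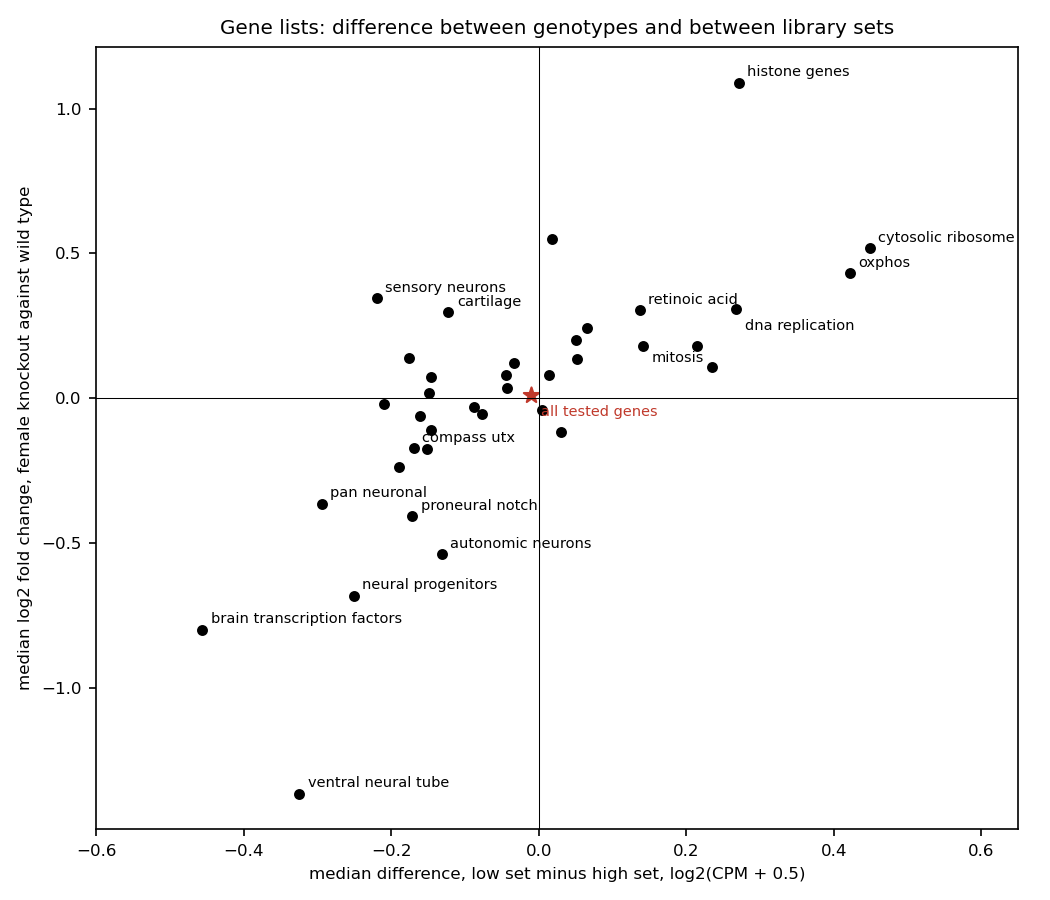
Median log2 fold change of each list with at least 9 tested members between female knockout and wild type (y axis) against its median difference between the low and the high set (x axis); the red star is the median of all tested genes. Ribosomal and respiratory genes are high on both axes (0.52 and 0.45, 0.43 and 0.42) and brain transcription factors low on both (-0.80 and -0.46), while sensory neuron and cartilage genes are higher in knockout and lower in the low set.

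A related gradient ran over gene size, in bins chosen after the data were seen. Among 1713 tested genes that span up to 5 kb in the RefSeq annotation of GRCm38.p6, 36.7% were called higher and 9.92% lower, whereas among 2077 genes over 100 kb 9.20% were higher and 33.9% lower. The median log2 fold change went from 0.21 to -0.12 over these bins, and the median difference between the low and high set from 0.20 to -0.18. The ribosomal list has a median span of 3.25 kb and the respiratory list of 7.21 kb. Brain transcription factors (9.77 kb) and ventral neural tube genes (6.46 kb) are also short, and their medians lay on the other side of 0. Neural progenitor genes (37.7 kb) and pan-neuronal genes (52.1 kb) are longer than the median tested gene (24.3 kb) and also had medians below 0. Over all tested genes the median was -0.01 from 20 to 50 kb and -0.10 from 50 to 100 kb. The part of gene size in the changes of these lists was not tested.

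**Figure D5:**
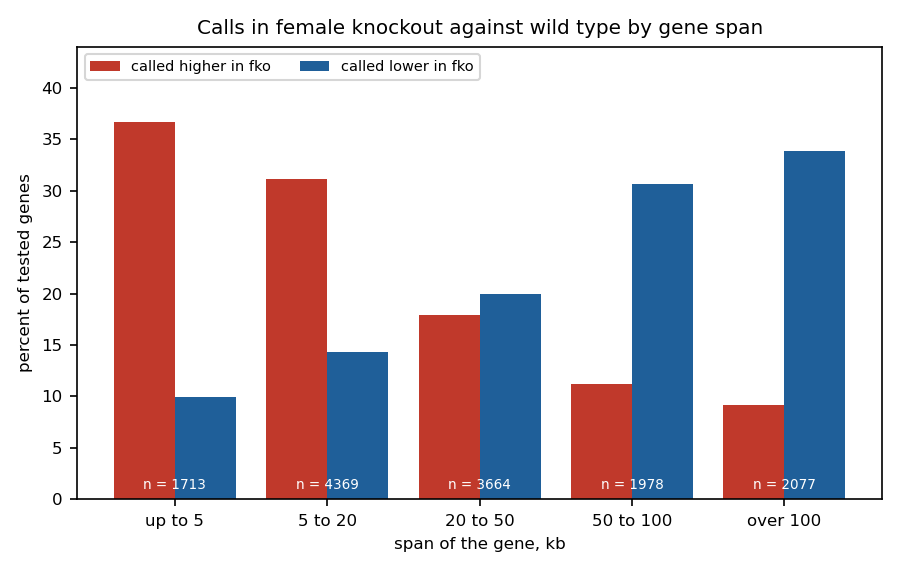
Percent of tested genes called higher (red) and lower (blue) in female knockout against wild type, by genomic span of the gene in kb, with the number of tested genes at the foot of each bin. Higher calls go from 36.7% in the shortest bin to 9.20% in the longest and lower calls from 9.92% to 33.9%.

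In a joint list of glycolysis and hypoxia response genes 18 of 36 rose (50%) and 3 fell (8.33%), with a median of 0.24. Over all tested genes 22.1% were higher and 20.5% lower. Ldha, which turns pyruvate into lactate, was at 458 and 306 CPM in wild type and 721 and 528 in female knockout (log2 fold change 0.72, SE 0.06). Both knockout libraries were above both wild-type ones. Aldoa and Pgam1, enzymes of the glycolytic chain, rose by 0.59 and 0.54, with Aldoa at 333 and 215 CPM against 465 and 350. Without 1 library the rises numbered 11, 1, 1 and 7 (wt1, wt2, fko1 and fko2 left out). The promoters of Ldha, Aldoa and Pgam1 are shown because these genes rose together and hold the core of the hypoxia response element, ACGTG, which was searched on both strands (its reverse complement is CACGT, and CACGTG holds both). The 150 bases before each gene's start, from RefSeq on GRCm38.p6, are at chr7:46845654-46845803 (+ strand) for Ldha, chr7:126799255-126799404 (- strand) for Aldoa and chr19:41911721-41911870 (+ strand) for Pgam1, with matches in capitals.
Ldha: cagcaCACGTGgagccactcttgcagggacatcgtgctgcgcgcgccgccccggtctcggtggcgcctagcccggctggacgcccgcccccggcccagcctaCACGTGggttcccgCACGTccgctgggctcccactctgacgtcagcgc
Aldoa: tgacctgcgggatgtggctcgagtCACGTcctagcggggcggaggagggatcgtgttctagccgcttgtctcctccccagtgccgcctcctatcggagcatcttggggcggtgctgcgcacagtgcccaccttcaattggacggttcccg
Pgam1: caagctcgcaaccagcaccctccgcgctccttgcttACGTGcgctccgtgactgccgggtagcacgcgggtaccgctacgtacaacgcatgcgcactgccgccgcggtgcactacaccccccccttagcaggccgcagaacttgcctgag
In the 250 bases before the start, 20 of 33 list members with a promoter in the table held the motif (60.6%), against 24.6% of 10852 tested genes and 16.6% of all 32851 windows. Among members that rose it was 10 of 17 (58.8%), so members that rose held it about as often as the list did. The list includes known hypoxia response genes, so a high share was partly built into its choice.

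Cell cycle genes leaned upward. Of 39 genes for DNA replication 29 rose and none fell (median 0.31), and of 39 mitotic genes 21 rose and 1 fell (median 0.18). Rises made up 74.36% of the replication and 53.85% of the mitotic list, against 22.1% of all tested genes. Mcm5, a subunit of the replicative helicase, was at 208 and 160 CPM in wild type and 305 and 216 in female knockout (log2 fold change 0.50, SE 0.06), with the lower knockout library just above the higher wild-type one. Cdk1, the kinase that drives entry into mitosis, was at 109 and 87.9 CPM against 157 and 118 (log2 fold change 0.47, SE 0.07), and Aurka, a spindle kinase, at 55.0 and 42.8 against 88.3 and 57.2 (0.56, SE 0.08). In each of these genes the low set was above the high set in both genotypes. Without 1 library the replication rises numbered 8, 0, 0 and 14 and the mitotic rises 1, 0, 0 and 3 (wt1, wt2, fko1 and fko2 left out). The promoters of Cdk1, Aurka and Ube2c, which hands mitotic proteins on for degradation, are shown with the motifs known from mitotic promoters in capitals. These are the CCAAT box, which reads ATTGG on the other strand, and the CHR element, searched on both strands as TTTGAA (its reverse complement being TTCAAA) and as the variant TTCGAA. They lie at chr10:69352913-69353062 (- strand), chr2:172370571-172370720 (- strand) and chr2:164769779-164769928 (+ strand) of GRCm38.p6, from RefSeq.
Cdk1: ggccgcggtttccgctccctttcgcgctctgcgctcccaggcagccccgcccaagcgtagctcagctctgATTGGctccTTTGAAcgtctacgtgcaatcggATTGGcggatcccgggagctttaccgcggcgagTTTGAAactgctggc
Aurka: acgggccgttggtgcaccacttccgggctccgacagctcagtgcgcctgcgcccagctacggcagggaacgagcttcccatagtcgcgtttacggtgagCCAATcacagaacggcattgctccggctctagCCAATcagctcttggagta
Ube2c: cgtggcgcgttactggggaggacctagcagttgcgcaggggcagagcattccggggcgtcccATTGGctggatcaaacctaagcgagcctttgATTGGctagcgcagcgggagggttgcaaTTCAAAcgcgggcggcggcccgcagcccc
The CCAAT box was in the 250 bases before the start of 25 of 33 mitotic genes (75.8%), against 40.4% of tested genes and 33.9% of all windows, and the CHR element in 12 of 33 (36.4%), against 14.3% and 17.2%. These are letter matches and describe the windows only.

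Several histone and small structural RNAs rose from low levels. Replication-dependent histone messages end in a stem-loop and not in a poly(A) tail, and the kit named in the labels isolates messenger RNA. Of 18 tested histone genes 11 rose (61.1%) and 1 fell (5.56%), with a median of 1.09. Over all tested genes 22.1% were higher and 20.5% lower. The rises numbered 5, 1, 0 and 4 without wt1, wt2, fko1 and fko2 and 1 with DESeq2, and among the 5 genes with a mean of at least 5 CPM 2 rose and 1 fell (median 0.14). The summed level of the list was 151 and 127 CPM in wild type and 158 and 147 in female knockout, so its sum overlapped between genotypes. Hist1h2bc was at 3.79 and 2.60 CPM in wild type and 8.49 and 6.56 in female knockout (log2 fold change 1.24, SE 0.22), and Hist1h2be at 0.61 and 0.34 against 2.16 and 2.42. Both knockout libraries were above both wild-type ones for Hist1h2bc and Hist1h2be, though near-identical histone genes can split reads. In windows of 10 neighbouring tested genes, a count chosen after the data were seen, the 3 windows with 8 genes called at 2-fold or more all lay in the histone cluster of chromosome 13, and 9281 of 13630 windows held none. Rmrp, the RNA of the RNase MRP enzyme, was at 1.76 and 0.75 CPM in wild type and 6.61 and 12.01 in knockout (log2 fold change 2.84, SE 0.27), and Rpph1, the RNA of RNase P, at 0.95 and 0.55 against 3.83 and 5.18. The Lars2 gene, which encodes a mitochondrial leucyl-tRNA synthetase, was at 1098 and 564 CPM against 3478 and 3829 (log2 fold change 2.21, SE 0.08). Rn45s was higher in the same libraries, and its part in these rises was not tested. Malat1, a nuclear noncoding RNA, rose by 0.55.

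A few single genes differed most. The largest rises and falls were picked only among genes whose genotypes did not overlap, so their separation follows from that rule. Of all tested genes 50.5% were separated in this way, called or not. Gm5506, named Eno1b in RefSeq and a near-copy of the glycolytic gene Eno1, was at 86.5 and 31.9 CPM in wild type and 2.02 and 1.17 in female knockout (log2 fold change -5.18, SE 0.16). It can share reads with Eno1, which was higher by 0.41, so its level is uncertain. Nr1h5, a nuclear receptor gene on chromosome 3, was at 12.05 and 22.7 CPM in wild type and 0.28 and 0.83 in knockout (log2 fold change -4.96, SE 0.26). Gm5506 and Nr1h5 were at or below 2.02 CPM in both knockout libraries and at 12.05 CPM or more in both wild-type ones. Wdfy1, an endosomal protein gene on chromosome 1, was at 70.6 and 78.8 CPM against 18.2 and 21.5 (log2 fold change -1.91, SE 0.09).

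Among the rises, Myo7a, an unconventional myosin of hair cells on chromosome 7, was at 2.57 and 1.99 CPM in wild type and 15.7 and 18.2 in knockout (log2 fold change 2.88, SE 0.20). Zfp874a, a zinc finger gene on chromosome 13, was at 4.81 and 5.69 CPM against 16.2 and 18.3 (log2 fold change 1.72, SE 0.17), and Crym, a thyroid hormone binding protein gene, at 24.4 and 26.2 against 71.6 and 58.0 (1.35, SE 0.09). Myo7a, Zfp874a and Crym were all 3 called in every alternative. Arg1, which splits arginine, was at 0.95 and 1.64 CPM against 15.2 and 5.94 (log2 fold change 2.94, SE 0.27). Cxcl14, a chemokine, was at 117 and 100 CPM against 274 and 217 (log2 fold change 1.17, SE 0.06). Gm8580, a transcribed pseudogene, was at 35.3 and 26.1 CPM in wild type, 1.46 in fko1 and 16.8 in fko2, so its log2 fold change of -1.95 (SE 0.21) rests largely on fko1 and was -0.72 without it. Miat, a neuronal noncoding RNA, was at 653 and 1113 CPM in wild type and 204 and 350 in knockout (log2 fold change -1.67, SE 0.06), with the high set above the low set in both genotypes. The share of called rises per chromosome ran from 17.3% on chromosome 12 to 27.9% on chromosome 19.

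Few genes were called between the female and the male knockout libraries, which with 2 libraries per group does not show that they are alike. Both comparisons with wild type share the same 2 wild-type libraries. In the fit of all 6 libraries 2 of 13936 genes (0.0144%) differed between female and male knockout by edgeR's quasi-likelihood test, with 580 at an unadjusted p below 0.05. Ttr, the transthyretin gene of choroid plexus, was at 36.4 and 49.9 CPM in wild type, 111 and 131 in female knockout and 53.2 and 57.2 in male knockout (female minus male log2 difference 1.12, adjusted p = 0.0395). Both female knockout libraries were above all others. The 15 choroid plexus markers, Ttr among them, summed to 381 and 325 CPM in wild type and 473 and 461 in female knockout. Much of that sum came from Ttr and from Msx1, also a cranial mesenchyme marker, so it does not describe the other choroid plexus markers. Of 12 tested, 3 were higher and 3 lower (25% each, against 22.1% and 20.5% over all tested genes). The part of choroid plexus content in the Ttr difference was not tested. Robo3, an axon guidance receptor of crossing axons, was at 26.8 and 70.6 CPM in wild type, 20.7 and 53.7 in female knockout and 19.9 and 9.67 in male knockout (female minus male log2 difference 1.29, adjusted p = 0.031). Its level was highest in wt2 and fko2 and overlapped between wild type and female knockout. As examples only, Neurog2 was at 10.0 and 11.2 CPM in mko1 and mko2 and Otx2 at 12.7 and 11.8. Myo7a was at 15.9 and 14.5 and Nr1h5 at 0.36 and 0.27 in the same libraries. Leaving out a male library raised the count of genes that differed between the knockouts to 469 (without mko1) and 535 (without mko2), settings added after the data were seen.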

How the data were processed

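RNA was measured in sorted cranial neural crest with a stranded mRNA-seq kit, per the labels' protocols. The authors deposited whole-number counts per gene, not normalized, per the file headers and values. Trimmomatic, TopHat2, HTSeq and build mm9 are named in the submitters' processing notes, and the strand setting and annotation are not given in the sources used here. Without a stated strand setting, reads of overlapping or antisense genes may not be told apart. Chromosomes came from RefSeq on GRCm38.p6 by symbol (21525 genes) or synonym (1685).

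The main test was edgeR 4.0.16 (quasi-likelihood, TMM factors, filterByExpr) under R 4.3.3 on 4 libraries with the library set as a block, with Benjamini-Hochberg adjustment over 13801 genes. The CPM values printed use TMM factors of all 6 RNA libraries. SE is derived from the F statistic. DESeq2 1.42.0, limma 3.58.1 (voom) and the other alternatives are listed in the closing section. The block is the library set, seen in the share of reads on no gene. No label ties it to a batch. In these 4 libraries it is the same split as the replicate number, but not in the male knockout, where mko1 is in the high set (27.6%) and mko2 in the low set (21.9%). Across 11136 genes wt1 minus wt2 and fko1 minus fko2 had r = 0.66, a single correlation between 2 pairs.

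Genes were named by rule: the 12 largest rises and 12 largest falls with non-overlapping groups and a mean of at least 5 CPM, the 10 smallest p in each direction at 20 CPM or more, and up to 4 members per list by p. Names outside it (Prrx1, Pdgfra, Eno1, Kdm6a, Robo3 and examples within lists) were chosen after their values were seen. The 47 lists hold 1106 different genes. Of 1186 list entries 1056 were tested, 102 had too few reads, 16 were not on an autosome and 12 had no symbol in the table. The comparison, its members and these lists were chosen with earlier results of these data known. Some genes the rule names are not reported here.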

Additional observations from a re-analysis of the deposited data

Results flagged for a closer look

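Ttr and Robo3 differed between the female and the male knockout in the test of that difference, by 1.123 and 1.29 on the log2 scale (0.0144% of tested genes were called).

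In the lists that follow, the median difference between knockout and wild type had opposite signs in the 2 library sets. Each is a single pair of libraries and the difference was not tested. The median was -0.17 in the low set and 0.72 in the high set for cartilage, -0.23 and 0.26 for osteoblast, -0.15 and 0.041 for matrix and fibroblast, and -0.10 and 0.20 for interferon response genes. Among markers of other cells it was -0.019 and 0.28 for erythroid, -0.71 and 0.038 for macrophage, -0.40 and 0.28 for epithelial and -0.057 and 0.055 for other mesoderm markers.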

How the results depend on the processing

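The count of 5891 called genes moved to 34 with no replicate block, to 3262 in the fit of 6 libraries and to 2207 with DESeq2, and became 1467, 517, 336 and 1809 without wt1, wt2, fko1 and fko2. Limma-voom (5111), upper-quartile factors (5478), DESeq2 size factors (5208), no filter (5291), a mean of at least 5 CPM (4977), all genes in the fit (4937) and abundant noncoding genes left out (5885) stayed within 1.5 times. The block changed the call of 169 of the 202 named genes and the direction of none. The count of genes that differed between female and male knockout, 2, was 0 with no replicate block, upper-quartile factors, at least 5 CPM or noncoding genes left out, 1 with DESeq2 size factors, 5 with DESeq2, and ranged from 2 to 535 when 1 library was left out. Signs reversed for Fabp7 (-0.081 without wt1), Ednrb (0.11 without wt2), Hbb-bh1 (-0.17 without wt1, -0.34 without fko2), Hbb-y (-0.0402, -0.66), Hba-x (-0.04903, -0.45), Meox2 (0.17 without fko2) and Meox1 (-0.14 without wt2, -0.056 without fko2). The cause was not tested. In the 4-library fit no library could be left out, since no residual degree of freedom would remain, so the fits of 5 libraries were used; there the lone library is assumed to vary like the others. Depth limits the histone and other genes near 1 CPM, which rest on few reads.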

Other observations

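Of 21 cholesterol synthesis genes 8 were lower (38.1%, against 20.5% of all tested genes) and 3 higher (median -0.12). The falls numbered 4, 0, 1 and 1 without wt1, wt2, fko1 and fko2, and 3 with DESeq2. Insig1, which holds back the activation of sterol genes, was at 93.9 and 103 CPM in wild type and 70.7 and 70.7 in female knockout (log2 fold change -0.47, SE 0.07). Both knockout libraries were below both wild-type ones.

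Of 24 p53 target genes 9 rose and 2 fell, with 3, 0, 0 and 3 rises without wt1, wt2, fko1 and fko2. Phlda3, an inhibitor of Akt, was at 13.5 and 9.32 CPM against 22.1 and 17.6 (log2 fold change 0.81, SE 0.15), while Mdm2, the feedback inhibitor of p53, fell by 0.42. Early response genes that tissue dissociation can induce were mixed, 8 higher and 6 lower of 28 (2, 1, 1 and 2 higher and 3, 0, 0 and 2 lower in the same fits). Fosb, an early response factor, was at 96.7 and 129 CPM against 62.7 and 62.1 (log2 fold change -0.84, SE 0.07), and Ctgf, a matrix signalling protein, at 15.43 and 13.98 against 33.8 and 40.8 (1.34, SE 0.12). Fosb and Ctgf did not overlap between the genotypes and moved in opposite directions. Of the early response genes 28.6% were higher and 21.4% lower, near the 22.1% and 20.5% over all tested genes. For p53 targets the shares were 37.5% and 8.33%.

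Axon guidance genes had 13 of 33 lower and 6 higher (median -0.02), with 5, 3, 2 and 7 falls without wt1, wt2, fko1 and fko2. Dcc, a netrin receptor, was at 140 and 217 CPM against 70.5 and 126 (log2 fold change -0.88, SE 0.06), and Cxcl12, a chemokine that guides migrating cells, at 329 and 326 against 475 and 446 (0.49, SE 0.06). Dcc was lower and Cxcl12 higher in both knockout libraries. Falls made up 39.4% and rises 18.2% of the axon guidance genes, against 20.5% and 22.1% over all tested genes.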
